A study of Mus musculus with 2 samples.

Results

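Fatty acid activation and beta-oxidation were described through the genes listed under the KEGG pathway of fatty acid degradation in the deposited annotation, without the alcohol dehydrogenase (*Adh*), aldehyde dehydrogenase (*Aldh*) and cytochrome P450 (*Cyp*) genes of that pathway. Of 34745 listed genes, 48 belonged to the pathway, 17 of these were left out by name and 31 remained. By the place where the encoded enzyme works, 17 were mitochondrial, 6 peroxisomal, 7 acyl-CoA synthetases and 1 cytosolic. RNA from the liver of a miRNA-182 KO group and a WT group was sequenced, with 1 library per genotype. The KO mice were heterozygous for miR-182-5p (+/-), so 1 allele was still present, the mice of both groups were male and 8 to 10 weeks old, and all had undergone 2/3 partial hepatectomy (PH), in which 70% of the liver was removed 3 days before the tissue was taken. The number of mice behind each library is not stated, and *Mir182* is not among the listed genes, so the genotype was not checked on its level.

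A fatty acid enters oxidation as an acyl-CoA, made by long-chain acyl-CoA synthetases (ACSL). Carnitine palmitoyltransferases carry long chains into mitochondria, where each turn of beta-oxidation shortens the chain by dehydrogenation, hydration, a further dehydrogenation and thiolysis. Peroxisomes run a parallel route that starts with an acyl-CoA oxidase and shortens very long and branched chains. Both routes are highly active in hepatocytes, and many of their genes are known targets of the nuclear receptor PPARα. The liver is known to store lipid for a time after PH.

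The libraries held 13247497 counts (KO) and 13163348 counts (WT). Mitochondrially encoded genes, 13 in all, held 51.7% of counts in KO and 31.0% in WT (exact 95% Clopper-Pearson intervals 51.6% to 51.7% and 30.9% to 31.0%, counting error only). The libraries were therefore scaled by TMM, under which the median log2 fold change (KO over WT) of the 13561 genes that reached 10 counts in sum was 0.00. With total counts that median was -0.60, so that each gene stood lower by about this amount. The 7 hepatocyte markers had log2 fold changes of -0.63 to 0.23, and their summed level was 52006 TMM-scaled CPM (counts relative to the scaled library size) in KO and 51277 in WT. The summed level was 77.9 against 109 CPM for 6 stellate cell markers, 99.4 against 130 for 6 macrophage markers and 64.9 against 80.1 for 6 endothelial markers. It was 164 against 125 for 5 cholangiocyte markers, from 1759 and 2032 counts. Most of it came from *Spp1* (152 against 116 CPM), whose log2 fold change was 0.40 with TMM and turned to -0.20 with total counts. On few counts *Krt19* (2.39, 26 and 7 counts) and *Krt7* (1.81, 15 and 6 counts) were past 2-fold higher, while *Epcam* (0.14) and *Sox9* (-0.31) were within 2-fold. *Lyve1* (-2.78, 4 and 45 counts) and *Adgre1* (-1.15, 12 and 41 counts), markers of endothelium and macrophages, were past 2-fold lower. The 3 adipocyte markers were at 0 in both libraries, 2 of 3 muscle markers were at 0 in both and *Ckm* had 1 count in the KO library. In bulk liver, fewer cells of a type and less RNA per cell cannot be told apart, and the part of these shifts in the values given here was not tested.

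Most genes of the pathway lay somewhat below the centre of all genes in the KO library, and a few at single steps stood far apart from the others. Among the 28 members with at least 10 counts, 4 were past 2-fold lower (*Hadhb*, *Ehhadh*, *Echs1* and *Acsl5*), which is 14.3% of them, against 9.94% of all genes tested. Past 2-fold higher were 2 members (*Acox3* and *Acsl1*), or 7.14%, against 9.46% of all genes. In either direction 21.4% of the members and 19.4% of all genes were past 2-fold. Held to 100 counts, the same 6 were past 2-fold among 27 members, or 22.2%, against 10.9% of all genes (4.95% higher and 5.94% lower), and with total counts 9 members were lower and 2 higher, against 26.6% and 4.6% of all genes. The direction was less even. A log2 fold change below 0 was found for 20 of the 28 members, against 50% of all genes, and the 95% counting interval lay wholly below 0 for 17 members and above 0 for 5, against 26.2% and 25.8% of all genes. Counting intervals narrow with depth, and 27 of the 28 members reached 100 counts, against 9322 of 13561 genes. The shares of intervals clear of 0 are therefore not like for like. The median log2 fold change was -0.24, and -0.84 with total counts. Summed over all members, 30463 KO counts against 54737 WT counts gave a log2 fold change of -0.25 (95% counting interval -0.27 to -0.23). With 1 library per genotype none of these differences has a replicate check, and all intervals of log2 fold changes and shares are exact 95% binomial intervals that cover counting error only.

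**Figure D1:**
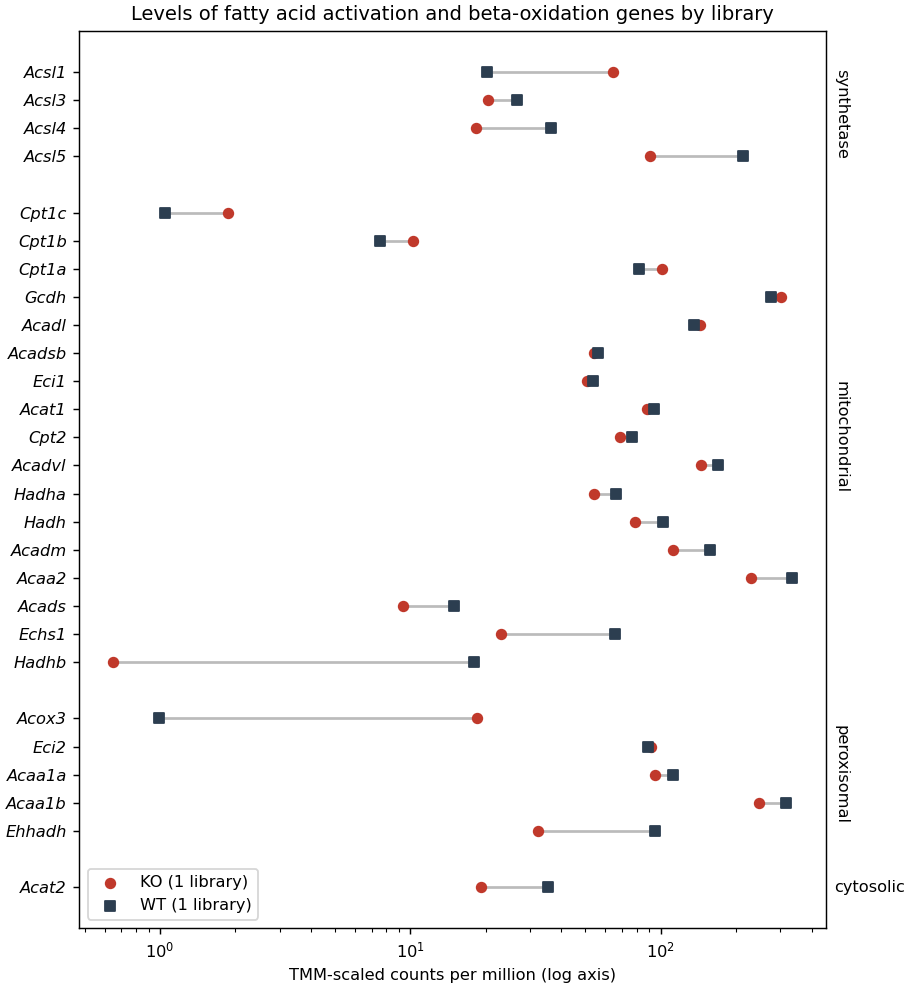
Level of 27 of the 28 tested members in each library, in TMM-scaled CPM on a log axis, 1 point per library and a line joining the KO and WT libraries of a gene. *Hadhb* (0.651 against 17.9) and *Acox3* (18.5 against 0.987) span the longest lines and lie in opposite directions.

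Activation was split between 2 synthetases that lay in opposite directions. *Acsl1*, the synthetase known to feed acyl-CoA to mitochondrial oxidation in several tissues, had 691 counts in KO and 327 in WT (4.32 and 2.06 FPKM). It was higher in the KO library, with a log2 fold change of 1.67 (1.48 to 1.87; 1.07 with total counts), and of the 4 synthetases tested it alone was higher there. *Acsl5*, a synthetase of mitochondria and endoplasmic reticulum that is abundant in liver, had 970 counts against 3442 (23.2 and 83.0 FPKM). It was lower in the KO library, at -1.23 (-1.34 to -1.13). On the opposite strand *Acsl5* overlaps *Zdhhc6* and *Acsl1* overlaps *Gm45244*, and whether the counting used strand is not stated.

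The makeup of the family differed between the libraries. *Acsl1* made up 33.3% of the counts of *Acsl1*, *Acsl3*, *Acsl4* and *Acsl5* in the KO library (95% interval 31.3% to 35.4%) and 6.83% in the WT library (6.13% to 7.58%). *Acsl5* took 46.7% (44.6% to 48.9%) against 71.9% (70.6% to 73.1%). There were 71.2 *Acsl1* counts per 100 of *Acsl5* in KO and 9.50 in WT, a ratio that no scaling of the libraries alters. Per length, *Acsl5* was above *Acsl1* in both libraries on the FPKM scale.

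*Acsl4*, which prefers arachidonic acid, had 196 counts in KO and 590 in WT. It stood just inside the 2-fold limit, at -0.996 (-1.24 to -0.76), and past it with DESeq2's size factors, with total counts, with the deposited FPKM and with total counts without mitochondrial genes. *Acsl3*, a synthetase of lipid droplets and endoplasmic reticulum, had 219 against 430 counts and a log2 fold change of -0.38 (-0.62 to -0.14). *Acsl6* and *1700061G19Rik* (RefSeq symbol *Acsbg3*) had 0 counts in both libraries and *Acsbg1* had 0 and 1, and with a floor of 3 counts no fold was formed for them. The median of the 4 tested synthetases was -0.69, and their summed counts gave -0.61 (-0.69 to -0.54).

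The 300 bases around the RefSeq starts of *Acsl1* and *Acsl5* (250 before and 50 after, GRCm38.p6) are shown since these genes of 1 family went opposite ways. *Acsl1* (ENSMUSG00000018796) lies on the plus strand at chr8:46471041-46536051 and its window at chr8:46470787-46471086, while *Acsl5* (ENSMUSG00000024981) lies on the plus strand at chr19:55253369-55296627 with its window at chr19:55253119-55253418. Capitals mark GGGCGG on either strand (the GC box) in *Acsl1* and CCAAT on either strand in *Acsl5*.
Acsl1: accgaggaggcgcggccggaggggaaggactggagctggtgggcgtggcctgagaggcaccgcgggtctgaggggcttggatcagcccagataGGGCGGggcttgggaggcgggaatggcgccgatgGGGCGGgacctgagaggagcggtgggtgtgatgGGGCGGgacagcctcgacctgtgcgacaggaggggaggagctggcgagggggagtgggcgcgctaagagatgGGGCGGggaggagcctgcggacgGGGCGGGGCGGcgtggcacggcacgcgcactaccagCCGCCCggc
Acsl5: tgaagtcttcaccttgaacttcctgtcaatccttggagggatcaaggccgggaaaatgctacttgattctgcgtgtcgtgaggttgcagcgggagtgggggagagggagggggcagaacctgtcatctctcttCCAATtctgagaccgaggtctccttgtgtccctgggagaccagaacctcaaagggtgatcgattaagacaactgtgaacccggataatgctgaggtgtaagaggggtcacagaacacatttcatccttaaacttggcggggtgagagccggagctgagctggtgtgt
The *Acsl1* window held 7 GC boxes and no CCAAT, and the *Acsl5* window 1 CCAAT and no GC box. RefSeq gives *Acsl1* a second start at chr8:46490716-46491015, with 2 CCAAT and no GC box, and the counts per gene do not separate the starts.

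At the entry into mitochondria, *Cpt1a* and *Cpt1b* were above 0 with TMM and below 0 with total counts, *Cpt1c* was above 0 and *Cpt2* below 0 with both. *Cpt1a*, the liver form of the outer carnitine palmitoyltransferase and the step at which malonyl-CoA limits oxidation, had 1090 counts in KO and 1331 in WT. Its log2 fold change was 0.30 (0.19 to 0.42) with TMM and turned to -0.30 with total counts. *Cpt1b*, the muscle form, had 110 and 123 counts, giving 0.43 (0.05 to 0.81) with TMM and -0.17 with total counts, and *Cpt1c*, a form of the brain, had 20 and 17 counts, giving 0.81 (-0.18 to 1.85) with TMM and 0.22 with total counts. *Cpt2*, the transferase of the inner membrane, had 738 and 1240 counts and stood at -0.16 (-0.29 to -0.02). There were 148 *Cpt1a* counts per 100 of *Cpt2* in KO and 107 in WT. *Cpt1a* took 89.3% of the counts of the 3 outer forms in the KO library (87.5% to 91.0%) and 90.5% in the WT library (88.9% to 91.9%), so the liver form led in both. *Cpt1b* shares 93.0% of its 51-base words with *Gm44502*, a gene that overlaps it on the same strand, and its counts are uncertain for that reason.

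The acyl-CoA dehydrogenases open each turn of the mitochondrial cycle and here lay between -0.67 and 0.07, the forms for medium and short chains lower than those for longer ones. *Acadvl*, for very long chains, had 1552 counts in KO and 2748 in WT and a log2 fold change of -0.23 (-0.32 to -0.14), and it shares 23.6% of its words, mainly with *Dvl2*, which overlaps it on the opposite strand. *Acadl*, for long chains, had 1535 and 2204 counts and stood at 0.07 (-0.02 to 0.17), and at -0.53 with total counts. *Acadm*, for medium chains, had 1204 and 2536 counts and stood at -0.48 (-0.58 to -0.38). *Acads*, for short chains, had 100 and 241 counts and stood at -0.67 (-1.03 to -0.33). Within these 4 genes the share of *Acadl* was larger in the KO library, 35% (33.5% to 36.4%) against 28.5% (27.5% to 29.5%), and that of *Acadm* smaller, 27.4% (26.1% to 28.8%) against 32.8% (31.8% to 33.9%), while *Acadvl* held 35.3% and 35.6%. None of the 4 was past 2-fold with TMM, and *Acadm* and *Acads* were past 2-fold lower with total counts and with the deposited FPKM.

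Both dehydrogenases of amino acid breakdown that the pathway also lists were near the centre of all genes. *Gcdh*, which oxidises glutaryl-CoA from lysine and tryptophan, had 3260 counts in KO and 4474 in WT, a log2 fold change of 0.14 (0.07 to 0.20), which turned to -0.47 with total counts. *Acadsb*, for short branched chains such as those from isoleucine, had 584 and 906 counts, at -0.04 (-0.19 to 0.11).

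The mitochondrial trifunctional protein, which hydrates long enoyl-CoA, oxidises the product and cleaves it, is built of an α chain from *Hadha* and a β chain from *Hadhb*. *Hadha* had 583 counts in KO and 1078 in WT, a log2 fold change of -0.29 (-0.44 to -0.15). *Hadhb*, which carries the thiolase activity, had 7 counts against 291 (0.0601 and 2.51 FPKM) and was 27.6-fold lower in the KO library, a log2 fold change of -4.71 (-6.11 to -3.72). Of all 13561 genes tested, 0.487% stood below this value. *Hadhb* made up 1.19% of the counts of both chains in the KO library (0.478% to 2.43%) and 21.3% in the WT library (19.1% to 23.5%). The β chain was thus close to the floor in the KO library while the α chain was not.

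*Hadha* (ENSMUSG00000025745) and *Hadhb* (ENSMUSG00000059447) are neighbours that read away from each other, at chr5:30118304-30155162 on the minus strand and chr5:30155248-30184593 on the plus strand of GRCm38, with 85 bases between their annotated starts. The 300 bases around the RefSeq start of *Hadhb*, chr5:30155003-30155302 on the plus strand of GRCm38.p6, are shown since *Hadhb* is the member that was lowest in the KO library relative to WT. The capitals mark the 85 bases between both starts.
Hadhb: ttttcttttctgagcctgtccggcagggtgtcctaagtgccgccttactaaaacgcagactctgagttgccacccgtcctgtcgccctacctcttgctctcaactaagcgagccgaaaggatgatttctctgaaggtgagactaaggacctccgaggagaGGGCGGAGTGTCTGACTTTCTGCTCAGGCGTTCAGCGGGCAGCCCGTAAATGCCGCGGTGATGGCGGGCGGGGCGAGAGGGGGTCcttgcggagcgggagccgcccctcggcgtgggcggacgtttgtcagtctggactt
The window held 4 GC boxes, and that of *Hadha*, chr5:30154931-30155230 on the minus strand, held 1. *Hadhb* shares 4.29% of its 51-base words with other genes and *Hadha* 0.630%.

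The enzymes that finish the cycle for medium and short chains were lower at the hydratase. *Echs1*, the short-chain enoyl-CoA hydratase, had 247 counts in KO and 1061 in WT and was lower in the KO library, at -1.51 (-1.72 to -1.31). *Hadh*, the hydroxyacyl-CoA dehydrogenase of the step that follows, had 848 and 1653 counts, at -0.37 (-0.49 to -0.25). There were 29.1 *Echs1* counts per 100 of *Hadh* in the KO library against 64.2 in the WT library, so the hydratase was lower relative to the next step. *Echs1* overlaps *Paox* on the opposite strand, and whether the counting used strand is not stated.

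The mitochondrial thiolases and the isomerase lay within 2-fold with TMM. *Acaa2*, the 3-ketoacyl-CoA thiolase and the member with the highest FPKM in each library (122 in KO and 272 in WT), had 2455 counts against 5429 and stood at -0.55 (-0.62 to -0.48), past 2-fold lower with total counts and with the deposited FPKM. *Acat1*, the acetoacetyl-CoA thiolase that also serves ketone bodies, had 943 and 1516 counts, at -0.09 (-0.21 to 0.03). *Eci1*, which moves double bonds of unsaturated chains into place, had 547 and 868 counts, at -0.07 (-0.23 to 0.08). Over all 17 mitochondrial members the median was -0.16, with 12 below 0, and over the 13 without the carnitine palmitoyltransferases it was -0.29, with 11 below 0.

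**Figure D2:**
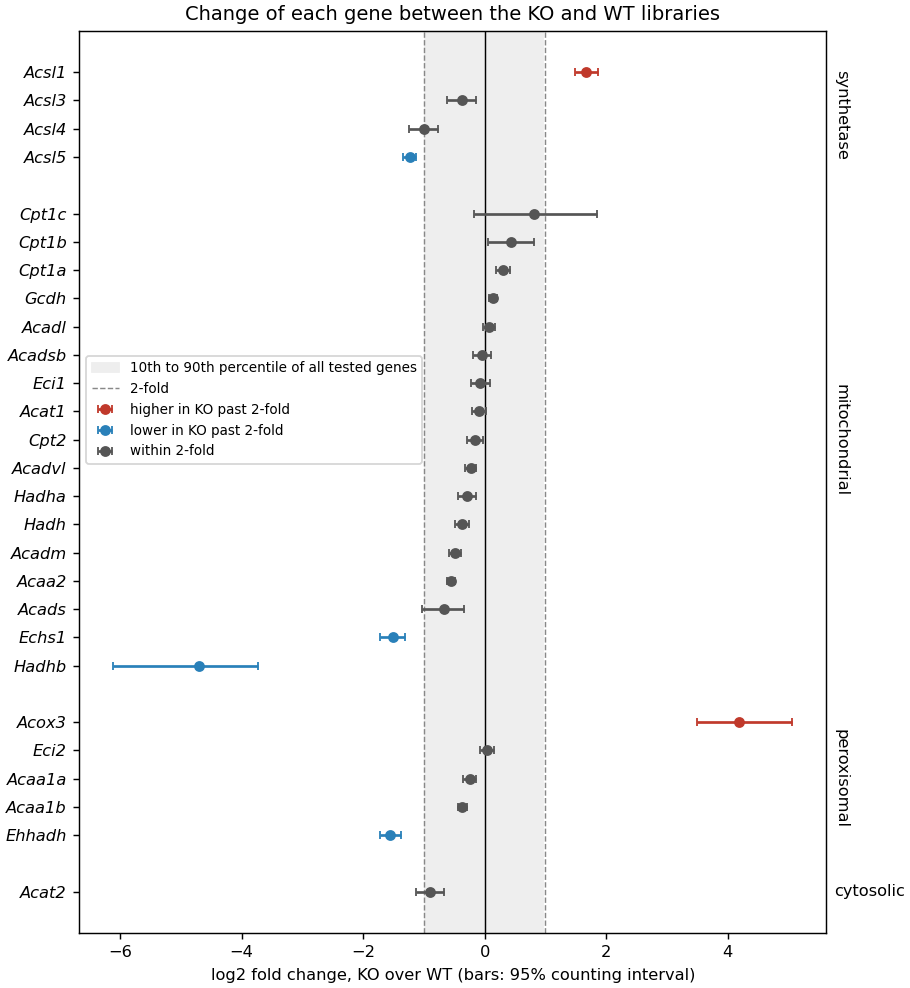
Log2 fold change (KO over WT, TMM-scaled counts) of 27 tested members, with 95% counting intervals as bars, dashed lines at 2-fold and a grey band from the 10th to the 90th percentile of all tested genes (-0.99 to 0.97). *Acsl1* and *Acox3* lie right of the upper line, *Acsl5*, *Echs1*, *Hadhb* and *Ehhadh* left of the lower one.

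In the peroxisome, *Acox3* stood furthest above the other members. *Acox3*, an oxidase of branched chains, had 199 counts against 16 (1.04 and 0.0838 FPKM), a log2 fold change of 4.18 (3.49 to 5.06). Its level was 18.8 times that of the WT library with TMM, and its log2 fold change was 3.59 with total counts and 2.63 with the deposited FPKM and a pseudocount of 0.1. In the WT library it was the member with the lowest FPKM among those tested. *Acox2*, the oxidase of bile acid intermediates, lies outside the pathway's list and had 679 and 1405 counts, at -0.46 (-0.59 to -0.32).

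*Acox3* (ENSMUSG00000029098) lies on the plus strand at chr5:35583040-35615352. The 300 bases around its RefSeq start, chr5:35582784-35583083 on GRCm38.p6, are shown since it is the member that was highest in the KO library relative to WT, with GC boxes on either strand in capitals.
Acox3: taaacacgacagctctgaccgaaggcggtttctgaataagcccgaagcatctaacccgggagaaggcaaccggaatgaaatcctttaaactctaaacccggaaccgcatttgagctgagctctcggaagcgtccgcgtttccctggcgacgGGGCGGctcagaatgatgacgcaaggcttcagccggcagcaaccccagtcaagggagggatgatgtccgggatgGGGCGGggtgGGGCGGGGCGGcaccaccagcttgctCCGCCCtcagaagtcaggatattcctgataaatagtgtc
The window held 5 GC boxes, some of which overlap. *Acox3* overlaps *4931431C16Rik* on the opposite strand and shares 3.64% of its words with other genes.

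The later peroxisomal steps were lower at the bifunctional enzyme. *Ehhadh*, which hydrates and then oxidises the enoyl-CoA, had 346 counts in KO and 1532 in WT, a log2 fold change of -1.55 (-1.73 to -1.38). On the FPKM scale its level was 8.65 against 38.6, lower in KO. *Hsd17b4*, the bifunctional enzyme of the other stereochemistry, was not in the pathway's list and stood at -0.35 (1052 and 2016 counts). The gap between the bifunctional enzymes thus lay at *Ehhadh*.

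The peroxisomal thiolases *Acaa1a* and *Acaa1b*, which cleave the chain, had 1016 and 2644 counts in KO and 1817 and 5142 in WT, at -0.25 (-0.36 to -0.13) and -0.37 (-0.44 to -0.30). *Acaa1b* held 72.2% of their summed counts in KO and 73.9% in WT. They share sequence (16% and 45.8% of their 51-base words are found in other genes, each other among them), so the division between them is uncertain. *Eci2*, a peroxisomal isomerase that is also found in mitochondria, had 983 and 1440 counts, at 0.04 (-0.08 to 0.16) and at -0.56 with total counts, and it shares 15.5% of its words with other genes. The cytosolic thiolase *Acat2*, which starts sterol synthesis, had 205 and 575 counts, at -0.89 (-1.13 to -0.66) and past 2-fold lower with total counts and with the deposited FPKM. It shares 45.7% of its words with other genes, among them *Acat3*, which stood at -0.13 (2387 and 3930 counts).

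**Figure D3:**
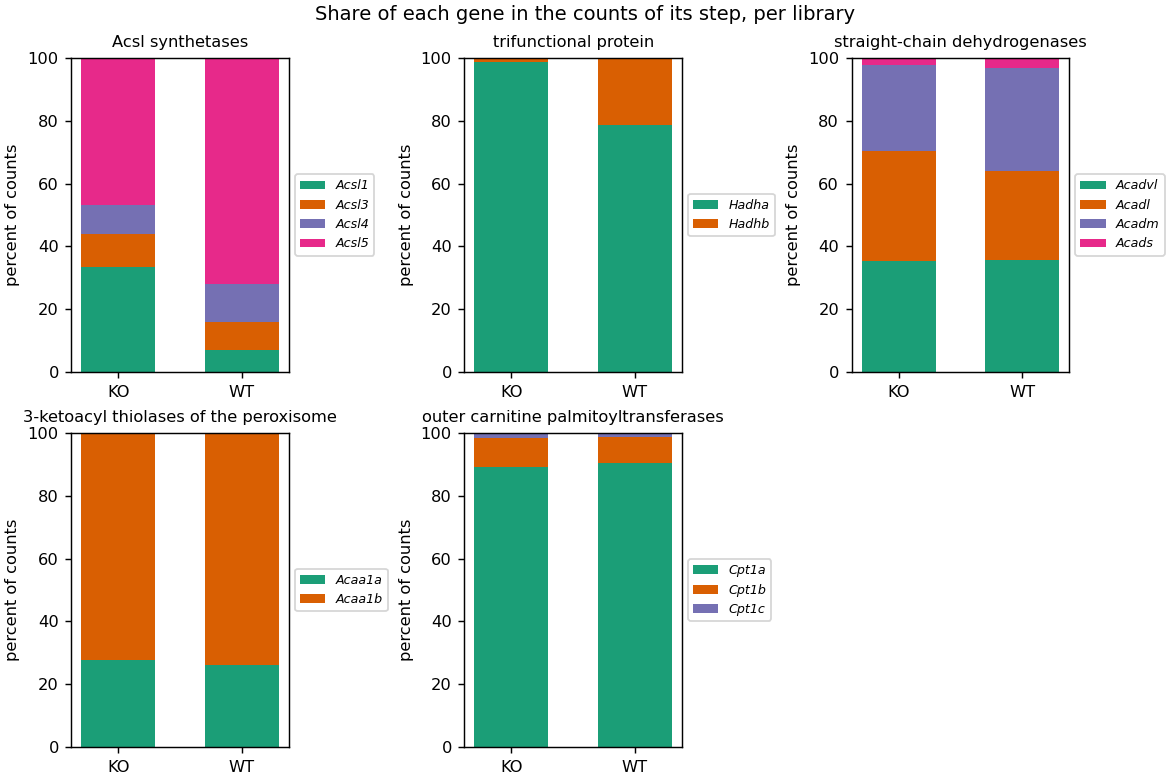
Percent of the counts of each group of related members that each gene held, per library, as stacked bars from 0 to 100. The *Acsl1* part is 33.3% (KO) and 6.83% (WT) and the *Hadhb* part 1.19% and 21.3%, while the thiolases and outer carnitine palmitoyltransferases keep nearly the same division.

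Set side by side, the compartments had nearly the same centre. The median log2 fold change was -0.16 for the 17 mitochondrial and -0.18 for the 6 peroxisomal members, a difference of -0.02, and the medians of the lower and upper counting bounds were -0.29 to -0.02 and -0.26 to -0.10. The summed counts gave -0.22 (-0.24 to -0.19) for mitochondrial members and -0.22 (-0.25 to -0.18) for peroxisomal ones. The synthetases lay lower, with -0.69, but they are 4 genes that include a member past 2-fold in each direction. The spread within a compartment was far wider than this difference, from -4.71 to 0.81 among mitochondrial and from -1.55 to 4.18 among peroxisomal members. With total counts the medians were -0.76, -0.78 and -1.29. The mitochondrial and peroxisomal medians still differed by 0.02, since a change of scaling moves all genes alike and cancels in the difference.

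**Figure D4:**
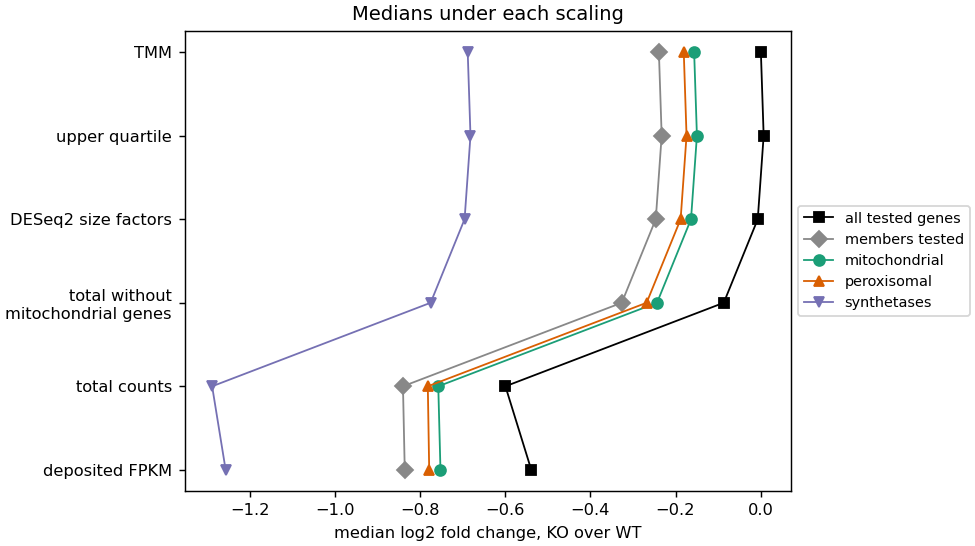
Median log2 fold change (KO over WT) of all tested genes and of the members, by scaling. With total counts and deposited FPKM all medians lie further left, that of all genes at -0.60 and -0.54 and that of the members at -0.84 in both, and the members are left of all genes under each scaling shown.

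The members shared further pathways that the rule did not use. Of those tested, 15 are also annotated to PPAR signaling, with 2 past 2-fold higher and 2 lower (13.3% each, against 9.46% and 9.94% of all genes) and a median of -0.16, and the 13 others held 2 of the lower calls (15.4%) and a median of -0.29. All 13 members that also belong to the degradation of valine, leucine and isoleucine were below 0, from -0.04 for *Acadsb* to -4.71 for *Hadhb*, with 3 past 2-fold lower (*Hadhb*, *Ehhadh* and *Echs1*, 23.1% against 9.94% of all genes), a median of -0.48 and summed counts at -0.50 (-0.53 to -0.46). Among all tested genes 50% were below 0. Some later steps of branched-chain amino acid breakdown are reactions of the same kinds, and which of these members carry them was not tested.

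Of the lists around the members, the PPARα target genes that are no members had the most genes past 2-fold, among them 2 *Cyp4a* genes of the pathway that were left out by name. Of 21 tested, 8 were lower and 0 higher, with a median of -0.70 (-1.30 with total counts). That is 38.1% lower, beside 9.94% of all genes. It is also the list with the most tested genes, and the share of the thioesterases, 36.4%, was close to it. *Cyp4a14*, a fatty acid omega-hydroxylase, had 121 counts in KO and 1985 in WT, at -3.44 (-3.72 to -3.18). *Pdk4*, the kinase that shuts pyruvate dehydrogenase, had 15 against 221 counts, at -3.25 (-4.15 to -2.54). *Cd36*, a fatty acid transporter, had 37 against 320 counts, at -2.51 (-3.05 to -2.03). *Acot3*, a thioesterase, had 3 against 34 counts, with 3 at the floor, and the counting interval of its log2 fold change ran from -5.26 to -1.24. The other lower ones were *Acot1* (-2.40), *Mgll* (-2.0), *Cyp4a10* (-1.52) and *Acot2* (-1.08), thioesterases, a lipase and a hydroxylase, while *Fabp1* and *Slc25a20* lay at 0.10 and 0.24. The list therefore held genes far below the centre together with abundant ones at it. *Fgf21* had 2 and 7 counts and was not tested.

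Of the genes that regulate the pathway, 10 of 16 tested were above 0 and 6 below with TMM. Past 2-fold 1 was higher and 1 lower (6.25% each, against 9.46% and 9.94% of all genes), and the median was 0.36 with TMM but -0.24 with total counts. *Lpin1*, a phosphatidate phosphatase that also acts as a coactivator of PPARα, had 348 counts in KO and 52 in WT, at 3.32 (2.91 to 3.78). *Pparg* had 24 against 81 counts, at -1.15 (-1.88 to -0.49). *Ppara* itself had 61 and 60 counts, at 0.61 (0.08 to 1.15) with TMM, and at 0.01 with total counts.

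Uptake and binding genes (11 tested) had 1 past 2-fold lower, *Cd36*, and a median of -0.52, with *Slc27a1*, a fatty acid transport protein, highest at 0.86. The mitochondrial genes that serve oxidation (12 tested) also had 1 lower and a median of -0.15. That gene was *Crat*, the carnitine acetyltransferase, with 49 counts in KO and 684 in WT, at -3.20 (-3.66 to -2.79), and *Acad10* was highest at 0.38. Of 16 other peroxisomal genes, *Nudt7*, a CoA diphosphatase, was higher with 5445 against 3190 counts, at 1.36 (1.30 to 1.43) with TMM and within 2-fold, at 0.76, with total counts, and *Abcd2*, an importer of very long chains, lower with 37 against 136 counts, at -1.28 (-1.85 to -0.75), around a median of -0.35. Past 2-fold lower were thus 9.09% of the uptake, 8.33% of the mitochondrial and 6.25% of the peroxisomal list, against 9.94% of all genes. Past 2-fold higher were 0%, 0% and 6.25%, against 9.46%. None of these shares was above that of all genes.

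No gene of the next lists was past 2-fold with TMM. The 9 other acyl-CoA synthetases had a median of 0.09, from *Acsf3* at -0.83 to *Aacs* at 0.43. The 7 ketogenesis genes had a median of 0.13, from *Slc16a1* at -0.91 to *Bdh2* at 0.65. The 10 genes of malonyl-CoA and AMPK had a median of 0.04, from *Acaca* at -0.57 to *Stk11* at 0.82. The medians of the synthetases, ketogenesis and malonyl-CoA lists turned negative with total counts (-0.52, -0.46 and -0.55). Several genes are in more than 1 list, so the lists are not independent of each other.

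**Figure D5:**
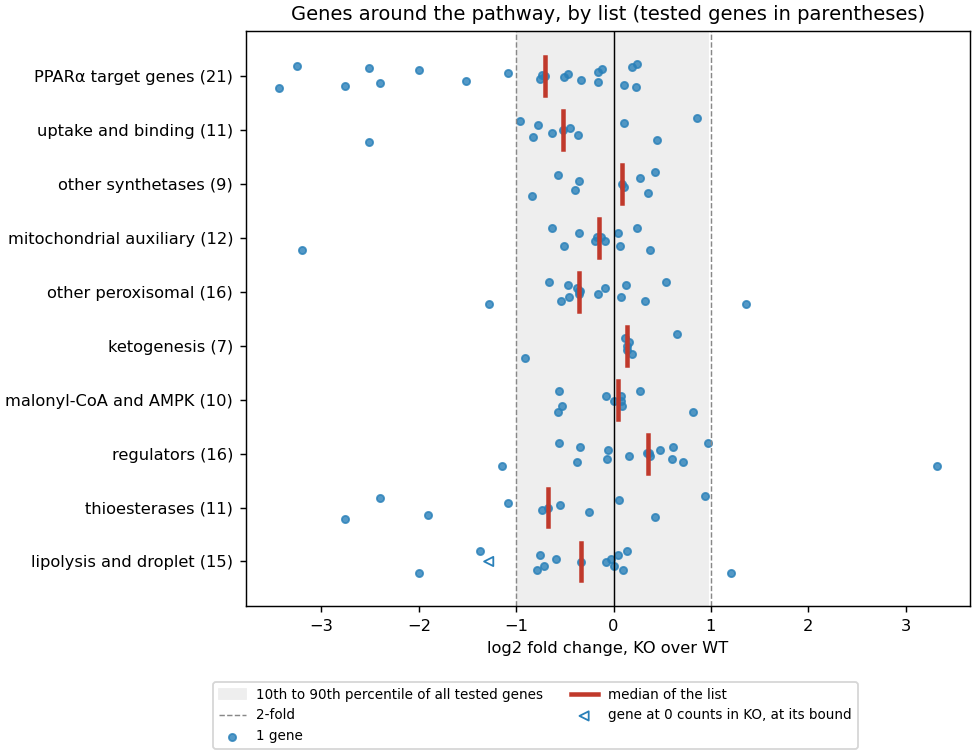
Log2 fold change (KO over WT, TMM-scaled counts) of the tested genes of 10 lists around the pathway, 1 point per gene (open triangle: a gene at 0 counts in KO, drawn as if it had 3 counts there), with the list median as a bar, 2-fold as dashed lines and the 10th to 90th percentile of all tested genes as a grey band. The PPARα targets and thioesterases have the lowest medians, -0.70 and -0.67, and the regulators the highest, 0.36.

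The mature miR-182-5p of the mouse comes from the minus strand of chromosome 6 (chr6:30165962-30165986, GRCm38.p6, RefSeq). It is shown since it is the miRNA that was targeted, with its seed, bases 2 to 8, in capitals.
mmu-miR-182-5p: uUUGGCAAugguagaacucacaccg
The seed pairs with TTGCCAA, and the sites sought in the longest annotated 3′ UTR were TTGCCAAA (8 bases) and, where that was missing, TTGCCAA or TGCCAAA (7 bases), on the transcript strand. Among 12541 tested genes with a 3′ UTR, 5.5% held the 8-base site and 16.2% a 7-base site as their best. Of the 28 tested members 0 held the 8-base site and 2 a 7-base site, in *Acadsb* at position 3322 of 4637 and in *Acadvl* at position 43 of 113, counted from the first base of the 3′ UTR. Both are shown with the site in capitals.
Acadsb: ttccacctccTTGCCAAcatctgctgt
Acadvl: ccttctctgaTGCCAAAaccctttatg
These 2 members stood at -0.04 and -0.23. The 6 members past 2-fold held none of the sites, which says only that these letters are not in their UTRs.

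Promoter windows of 300 bases were given by RefSeq for 24 of the 28 tested members (25 windows). The GC box (GGGCGG) was in 20 of these windows, against 35.7% of 32851 promoters of all genes. These promoters include those of genes that were not tested, while the members counted here all were. This share of all promoters and those that follow are therefore not like for like with the members. CCAAT was in 11 (37.4% of all), the half-site AGGTCA in 5 (16.3%), and the E-box CACGTG in 0 (7.15%). The PPAR element DR1, the half-site repeated on the same strand after 1 base of any kind, was in 0 windows and in 0.0396% of all. Both strands were searched. A match is a description of the letters and not a binding site.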

How the data were processed

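Poly(A) RNA of mouse liver was sequenced on Illumina HiSeq instruments. The authors deposited read counts per gene, not normalized, and FPKM, values scaled by gene length and total count, that they computed from them. Submitters' processing notes name HISAT2 2.0.4, StringTie, edgeR and the build hg38 although the samples are mouse, and the role of each tool, the counting program and the annotation are not given in the sources used here. Coordinates are those of the deposited table, in which 34267 of 34745 identifiers are in GENCODE M21 (GRCm38), 80.8% of them with the same coordinates. The FPKM imply gene lengths of 0.498 to 2.21 times the merged exons of GENCODE over the members (median 1.17), so levels between genes are approximate.

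Libraries were scaled with TMM in edgeR 4.0.16 (R 4.3.3), with factors of 0.812 (KO) and 1.23 (WT) computed on genes with 10 or more counts in sum. Log2 fold changes were taken from scaled counts with a prior count of 0.5, in Python 3.11.15 with numpy 2.4.6, scipy 1.17.1 and pandas 2.3.3, and drawn with matplotlib 3.10.9. A gene was called higher or lower past 2-fold with at least 10 counts. Intervals are exact Clopper-Pearson. With 1 library per genotype edgeR's quasi-likelihood test cannot be fitted, and no test of the genotypes was made. Depth limits each value as its counting interval shows, and a library with 3 counts or fewer was taken as at the floor. The steps were tested on simulated data. Shared sequence is the percentage of the 51-base words of the longest transcript found in any other gene. Named are the members, apart from what is not reported here by name, and of each list the genes past 2-fold or, where these are fewer than 2, the highest and the lowest. *Acox2*, *Acat3*, *Hsd17b4*, *Fabp1*, *Slc25a20*, *Ppara*, *Fgf21* and *Cyp4a12a* were added after their values were seen. *Spp1*, *Epcam* and *Sox9* were added in the same way. The members and lists were chosen with earlier results of these data known. Alternatives were total counts with and without mitochondrially encoded genes, DESeq2's size factors (1.42.0), upper quartile, a prior count of 5, the deposited FPKM with a pseudocount of 0.1, a minimum of 1 or 50 counts, calls with the interval clear of 0, 1.5-fold, *Eci2* as mitochondrial, and medians without members that share over 10% of their words. A minimum of 100 counts and the calls without such members were added after seeing the data. Summaries cover all tested genes, and 2 of them are not reported here by name.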

Additional observations from a re-analysis of the deposited data

How the results depend on the processing

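No paired analysis was possible because there is 1 library per genotype, and for the same reason no library could be left out. The 6 members past 2-fold with TMM (2 higher, 4 lower) were past it in the same direction with total counts with and without mitochondrially encoded genes, the upper quartile, DESeq2's size factors, the deposited FPKM and a prior count of 5. Minimums of 1, 50 and 100 counts could not alter these calls, since they leave the fold of a gene unchanged and all 6 members reached them. Total counts and FPKM also put *Acaa2*, *Acadm*, *Acads*, *Acat2* and *Acsl4* past 2-fold lower, 9 in all under each, and a 1.5-fold limit gave 7 lower. The member median was -0.84 with total counts and -0.84 with FPKM, the mitochondrial one -0.76 and -0.75, the peroxisomal one -0.78 and -0.78, the synthetase one -1.29 and -1.26, and that of all genes -0.60 and -0.54. Scaling by total counts moves all genes alike. The peroxisomal median was -0.27 with total counts without mitochondrially encoded genes, and the synthetase median -0.996 with a minimum of 1 count, since *Acsbg1* with 1 count then entered. The difference of the peroxisomal from the mitochondrial median, -0.02, ran from -0.12 with *Eci2* as mitochondrial to 0.04 without members that share sequence, and was 0.01 with at least 50 counts. Over all genes, 1283 higher and 1348 lower became 624 and 3605 with total counts, 405 and 2934 with FPKM, 2534 and 2625 at 1.5-fold, 2289 and 2752 with at least 1 count, 642 and 766 with at least 50, and 461 and 554 with at least 100. With total counts 26.6% of all genes were lower, against 9.94% with TMM, so the number of lower members under total counts is to be read against that share. The floor limits *Hadhb* in the KO library (7 counts) and *Acox3* in the WT library (16 counts) most.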

Other observations

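Next to the oxidation genes, the acyl-CoA thioesterases, which release free fatty acids from acyl-CoA, had 4 of 11 tested genes past 2-fold lower in the KO library and 0 higher, against 9.94% and 9.46% of all genes, with a median log2 fold change of -0.67 (-1.27 with total counts, where 26.6% of all genes were lower). *Acot1*, of the cytosol, had 15 counts in KO and 122 in WT, at -2.40 (95% counting interval -3.31 to -1.65). *Acot2*, its mitochondrial relative, had 37 and 119 counts, at -1.08 (-1.67 to -0.55). *Acot3* had 3 and 34 counts and *Acot6* 5 and 30, both low in the KO library. *Acot1*, *Acot2* and *Acot3* are also in the list of PPARα target genes, so the lists are not independent. Sequence sharing within this family was not tested.

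Among 15 tested genes of lipolysis and lipid droplets, 3 were past 2-fold lower (20%) and 1 higher (6.67%), against 9.94% and 9.46% of all genes, with a median of -0.33. *Mgll*, the monoacylglycerol lipase and also in the list of PPARα target genes, had 168 counts in KO and 1015 in WT, at -2.0 (-2.25 to -1.77). *Pnpla3*, a droplet lipase, had 18 and 71 counts, at -1.37 (-2.22 to -0.63). *Cidec*, a droplet protein, had 0 and 11 counts, and with the floor of 3 counts in place of 0 in the KO library it was 2.43-fold lower. The upper bound of its counting interval was -0.74, so counting error alone leaves room for a change within 2-fold. *Lipe*, the hormone-sensitive lipase, was higher with 148 and 96 counts, at 1.21 (0.84 to 1.60) with TMM, and within 2-fold, at 0.61, with total counts.

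Of the pathway's genes left out by name, 15 were tested, and 13 of these were below 0, against 50% of all genes. Past 2-fold, 20% were lower and 6.67% higher, against 9.94% and 9.46% of all genes. The 6 tested *Cyp4a* genes, which start omega-oxidation, had a median of -1.12. Past 2-fold lower were *Cyp4a14*, *Cyp4a31* (39 counts in KO and 397 in WT, -2.74) and *Cyp4a10*, or 50% of them. *Cyp4a12a*, with 1104 and 1063 counts, stood at 0.65 with TMM and at 0.05 with total counts. The 5 *Aldh* genes lay between -0.91 and -0.18, and of 4 *Adh* genes *Adh7* was past 2-fold higher (78 and 45 counts, 1.37), though within 2-fold, at 0.78, with total counts, around a median of -0.38.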
